A study of Mus musculus with 20 samples.

Results

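Gene sets named for MYC or MYCN were followed through the authors' gene set enrichment results on myeloid cells of healthy and melanoma-bearing mice and on the melanoma lines themselves. The sets were taken from the 14 reports by name: every set whose name contains MYC but not MYCO, E2F or MIR. Of 3886 set names listed in all, 47 matched. Only 44 of these are MYC sets, because 3 names matched through the word RAPAMYCIN, an inhibitor of the mTOR kinase, and these are described apart. Among the 44, 13 names end in DN and 2 contain REPRESS, and the remaining 29 are called activated-name sets here. The activated-name sets came from 21 sources, counting the first word of each name as a source.

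The libraries came from 20 samples of C57BL/6 origin. Myeloid cells of adult mice, obtained by removing CD3e-positive cells with a depletion kit, were represented in bone marrow by 3 libraries of healthy animals, 3 of B16F10 tumor-bearing animals and 2 of YUMM3.3 tumor-bearing animals. Spleen gave 2 libraries in each of the same conditions. The melanoma lines B16F10 and YUMM3.3, cultured for 4 days, gave 3 libraries each. B16F10 was selected for metastasis from a C57BL/6 melanoma. The YUMM3.3 line was derived from an engineered mouse melanoma with mutant Braf and no Cdkn2a. Removal of CD3e-positive cells takes away T cells but not B cells or erythroid cells, and the myeloid label could not be checked against marker genes because no gene values were analysed here. Tumour age, pooling and the animal behind each library are not in the labels.

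MYC is a transcription factor that pairs with MAX, binds E-box DNA and drives genes for ribosome biogenesis, nucleotide synthesis, metabolism and cell division. MYCN and MYCL are its relatives, amplified in neuroblastoma and small cell lung cancer. In the marrow MYC is active in dividing progenitors and falls as neutrophils and macrophages mature. MYC also represses genes, so a study of MYC usually yields a set of induced genes (UP) and a set of reduced genes (DN). The core E-box, CACGTG on either strand since it is a palindrome, was present in 2349 of 32851 mouse RefSeq promoter windows of 300 bases (7.15%, GRCm38.p6). The genes of each set are not listed in the reports, so no promoter could be tied to a score.

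Each value below is the normalised enrichment score (NES), the enrichment score of a set divided by the mean of its permuted scores. Its sign was set so that positive is higher in the first-named group, and a set was called at a deposited false discovery rate q (FDR q) below 0.05. The reports hold 1 value per set and comparison, so neither a spread between libraries nor the depth is known here, and a bulk difference cannot separate more cells of a type from more RNA per cell. The smallest nonzero nominal p was between 0.00103 and 0.00171 in the 7 comparisons, whereas relabelling libraries could give no less than 0.05 to 0.167. The nominal p values are thus finer than a relabelling of libraries allows. The q values are not read here as a measure of how animals or cultures vary. Sets also share genes, and the comparisons of both tumours with healthy animals share the healthy libraries of a tissue, so neither sets nor comparisons are independent.

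Most calls among the MYC sets were on the tumour-bearing side of the comparisons with healthy animals. Activated-name sets lay above 0 in 24 of 29 cases in marrow with B16F10, 21 in marrow with YUMM3.3, 26 in spleen with B16F10 and 25 in spleen with YUMM3.3. Of all 3883 listed sets, 56.2%, 53.1%, 74.7% and 48.3% lay above 0 in the same order. In all, 69 of 308 values of MYC sets were called, 61 higher in the first-named group and 8 lower, and 16 of the 69 also had a family-wise p below 0.05. The 69 were 22.4% of the values, beside 17.3% of the 27169 values of all listed sets. By direction, the 61 and 8 were 19.8% and 2.6%, beside 13.1% and 4.25% over all listed sets. Calls over all listed sets were thus mostly higher too. Of the activated-name sets, 19 of 29 (65.5%) were called in at least 1 comparison, and of the DN sets 8 of 13 (61.5%), beside 55.6% of all set names.

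**Figure D1:**
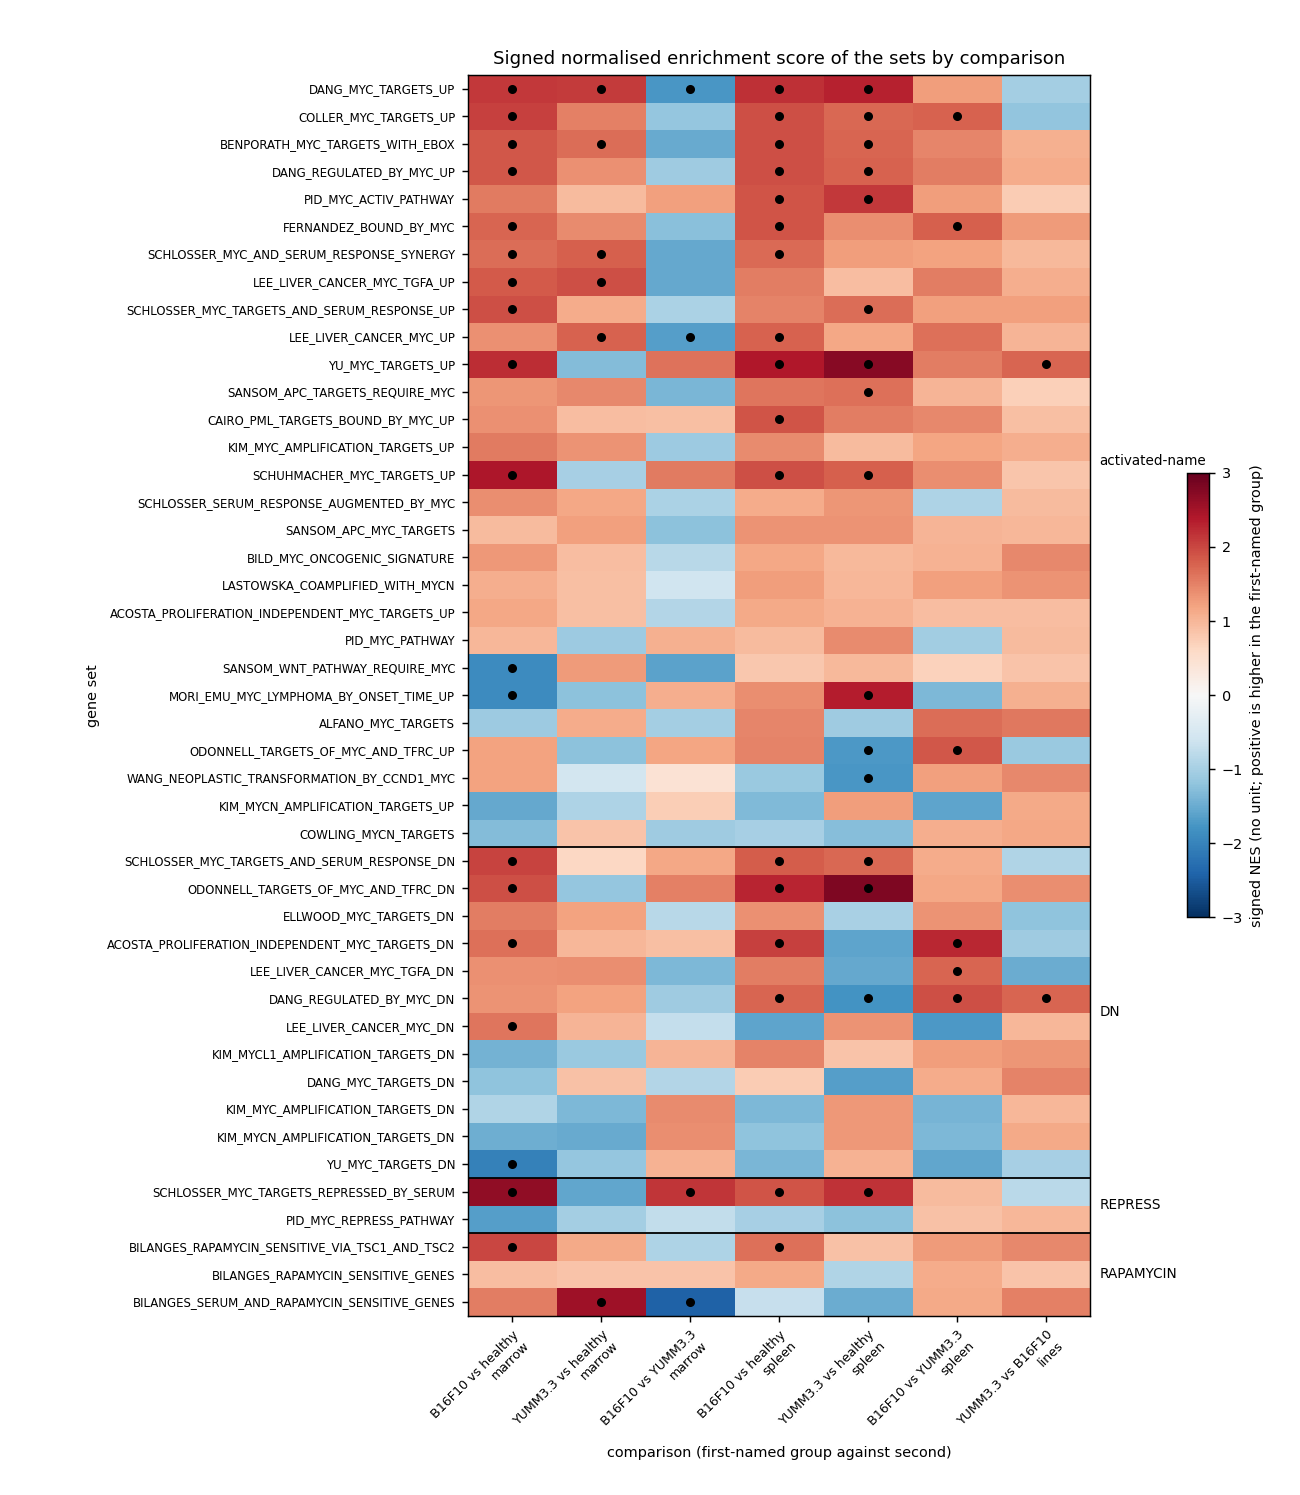
Signed NES (colour, no unit) of 45 of the 47 sets in the 7 comparisons, grouped by name into activated-name, DN, REPRESS and RAPAMYCIN sets and ordered within a group by the mean over the 4 comparisons with healthy animals; black dots mark FDR q below 0.05. DANG_MYC_TARGETS_UP and BENPORATH_MYC_TARGETS_WITH_EBOX carry a dot in each comparison with healthy animals, and the column of the lines carries 2 dots among the 45 sets shown.

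Marrow of B16F10-bearing animals scored above healthy marrow for a number of activated-name sets, a class made by name and not by induction. Of the 29 activated-name sets, 11 were called higher and 2 lower, or 37.9% and 6.90%, against 20.1% and 5.0% of all 3883 listed sets. Their median NES was 1.38, and that of all listed sets was 0.96. With each source counted once by its set of largest NES, 9 of 21 activated-name sources (42.9%) were called higher, beside 40.4% of all sources, so the 2 shares then lay close together. SCHUHMACHER_MYC_TARGETS_UP, from a human B cell line with switchable MYC, led with an NES of 2.43 per the authors' deposited table, followed by YU_MYC_TARGETS_UP at 2.22, DANG_MYC_TARGETS_UP at 2.11 and COLLER_MYC_TARGETS_UP at 2.05. SCHLOSSER_MYC_TARGETS_AND_SERUM_RESPONSE_UP, at 1.93, and DANG_REGULATED_BY_MYC_UP, at 1.85, came next in the authors' deposited table. The called sets on the other side were MORI_EMU_MYC_LYMPHOMA_BY_ONSET_TIME_UP, from B cell lymphomas of mice with a Myc transgene (-1.88), and SANSOM_WNT_PATHWAY_REQUIRE_MYC, from mouse intestine without Apc (-1.88), both in the authors' deposited table. In the same comparison 4 of 24 B cell sets were called lower and 5 higher, and 12 of 16 ribosome and translation sets and 4 of 14 E2F sets were called higher. The part of these cell types and programmes in the MYC scores was not tested.

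Fewer activated-name sets were called higher in the marrow of YUMM3.3-bearing animals, and so were fewer of all listed sets. There were 5 higher (17.2%) and 0 lower, against 9.68% and 6.52% of all listed sets, and at a nominal p below 0.05 the enrichment reports listed 9 higher and 0 lower. With each source counted once by its set of largest NES, 4 of 21 activated-name sources (19.0%) were called higher, beside 14.8% of all sources. The authors' deposited table gave DANG_MYC_TARGETS_UP an NES of 2.09, LEE_LIVER_CANCER_MYC_TGFA_UP 1.93, SCHLOSSER_MYC_AND_SERUM_RESPONSE_SYNERGY 1.79, LEE_LIVER_CANCER_MYC_UP 1.78 and BENPORATH_MYC_TARGETS_WITH_EBOX 1.67. Of the sets that led with B16F10, 2 were below 0 here without passing the threshold: the authors' deposited table gave YU_MYC_TARGETS_UP -1.29 (FDR q = 0.242) and SCHUHMACHER_MYC_TARGETS_UP -0.99 (FDR q = 0.629). Of the 16 ribosome and translation sets, 13 were called higher, while 2 of 14 E2F sets were called lower and 0 higher. Of 9 sets named for MTOR, the kinase that controls growth and translation, 4 were called lower and 1 higher.

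The direct comparison of the tumours in bone marrow called 0 activated-name sets higher with B16F10 and 2 lower (6.90%), against 8.09% and 8.4% of all listed sets. At a nominal p below 0.05 the enrichment reports listed 3 higher and 7 lower. DANG_MYC_TARGETS_UP, of genes bound and induced by MYC, had an NES of -1.75 (FDR q = 0.0215) and LEE_LIVER_CANCER_MYC_UP, from livers of Myc transgenic mice, -1.66 (FDR q = 0.0419) in the authors' deposited table, so both were higher with YUMM3.3. SCHLOSSER_MYC_TARGETS_REPRESSED_BY_SERUM went the other way with an NES of 2.15 (FDR q = 0.000724) in the authors' deposited table. YU_MYC_TARGETS_UP, at 1.62 (FDR q = 0.0588), and SCHUHMACHER_MYC_TARGETS_UP, at 1.56 (FDR q = 0.0807), did not pass in the authors' deposited table. MYC sets thus lay on both sides of this comparison, as did the related lists: 13 of 16 ribosome and translation sets were lower with B16F10, and 4 of 14 E2F sets and 4 of 9 MTOR sets were higher.

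In spleen of B16F10-bearing animals the called activated-name sets were all higher, where few of all listed sets were called lower. There were 11 higher (37.9%) and 0 lower of 29, against 16.6% and 1.6% of all listed sets, and at a nominal p below 0.05 the enrichment reports gave 18 and 0. The median NES was 1.48, beside 1.09 for all listed sets. When each source counted once, 10 of 21 activated-name sources (47.6%) were called higher, beside 40.1% of all sources. The authors' deposited table gave YU_MYC_TARGETS_UP, from B cell lymphomas with active MYC, an NES of 2.40, DANG_MYC_TARGETS_UP 2.20, BENPORATH_MYC_TARGETS_WITH_EBOX 1.93, SCHUHMACHER_MYC_TARGETS_UP 1.93, COLLER_MYC_TARGETS_UP 1.93 and DANG_REGULATED_BY_MYC_UP 1.93. E2F sets were called higher in 9 of 14 cases, ribosome and translation sets in 2 of 16, and erythroid sets in 3 of 13. Of 24 B cell sets 3 were called lower and 2 higher, and their part in the MYC values was not tested.

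In spleen of YUMM3.3-bearing animals, 10 activated-name sets were called higher (34.5%) and 2 lower (6.90%), against 15.6% and 5.31% of all listed sets. The median NES was 1.33, whereas that of all listed sets was -0.69. With each source counted once by its set of largest NES these medians were 1.38 and 0.99, and 9 of 21 activated-name sources (42.9%) were called higher, beside 31.6% of all sources. In the authors' deposited table YU_MYC_TARGETS_UP had an NES of 2.73, MORI_EMU_MYC_LYMPHOMA_BY_ONSET_TIME_UP 2.35, DANG_MYC_TARGETS_UP 2.30 and PID_MYC_ACTIV_PATHWAY, a curated list of genes that MYC activates, 2.12. SCHUHMACHER_MYC_TARGETS_UP followed with 1.79 and DANG_REGULATED_BY_MYC_UP with 1.76 in the authors' deposited table. The lower sets were WANG_NEOPLASTIC_TRANSFORMATION_BY_CCND1_MYC (-1.75) and ODONNELL_TARGETS_OF_MYC_AND_TFRC_UP (-1.73) in the authors' deposited table, the latter named for MYC and the transferrin receptor gene. Of 14 E2F sets 10 were called higher. For ribosome and translation the count was 4 of 16, with 1 on the lower side, and for B cells 3 of 24, also with 1 on the lower side. Platelet sets were called lower in 5 of 11 cases.

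Between the tumours in spleen, activated-name sets were called at about the rate of all sets. There were 3 higher with B16F10 (10.3%) and 0 lower, against 9.63% and 1.47% of all listed sets, with 9 higher and 1 lower at a nominal p below 0.05 in the enrichment reports. The authors' deposited table gave ODONNELL_TARGETS_OF_MYC_AND_TFRC_UP an NES of 1.87, FERNANDEZ_BOUND_BY_MYC 1.79 and COLLER_MYC_TARGETS_UP 1.76. Of 13 DN sets 4 were called higher (30.8%) and 0 lower, with 4 higher and 4 lower at a nominal p below 0.05.

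**Figure D2:**
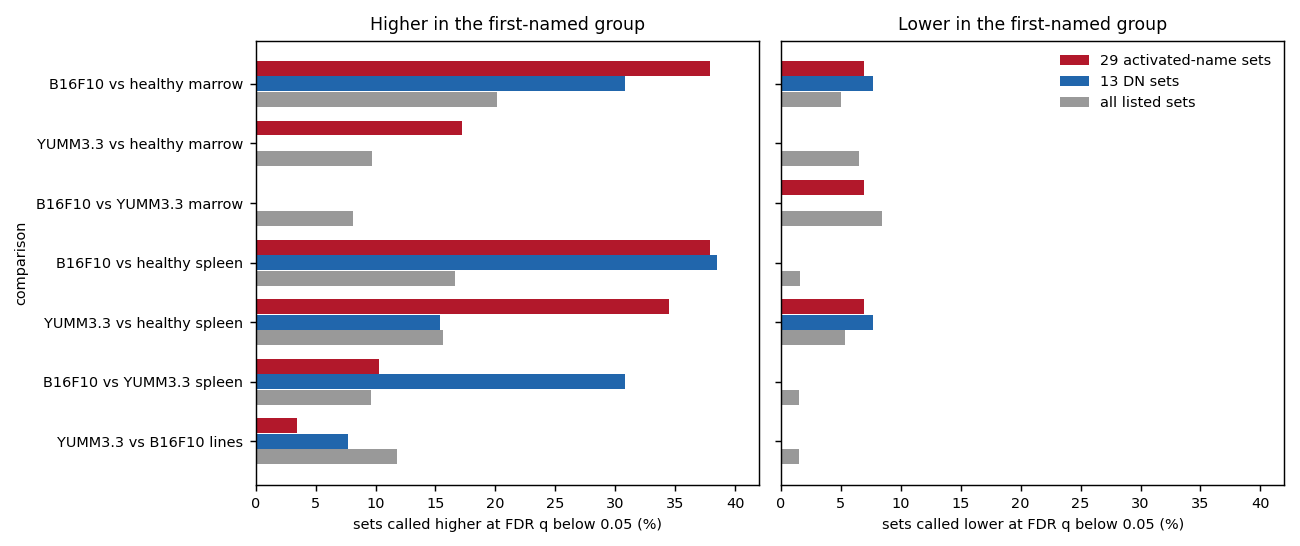
Share of sets (%) called higher (left) or lower (right) in the first-named group at FDR q below 0.05, for the 29 activated-name sets, the 13 DN sets and all listed sets in each comparison. In both comparisons of B16F10-bearing with healthy animals the activated-name share is 37.9%, above the shares of 20.1% and 16.6% of all listed sets, and the DN shares there are 30.8% and 38.5%. In the lines the activated-name share is 3.45%, below 11.8%.

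The 3 activated-name sets with binding or an E-box in the name were above 0 in each comparison with healthy animals. DN sets could not enter this group. With B16F10 before YUMM3.3, 56.2% and 53.1% of all listed sets lay above 0 in marrow, and 74.7% and 48.3% in spleen. Of the 3 sets, 2 and 1 were called higher in marrow and 3 and 1 in spleen. The shares of all listed sets called higher were 20.1% and 9.68% in marrow and 16.6% and 15.6% in spleen. BENPORATH_MYC_TARGETS_WITH_EBOX, MYC targets that carry an E-box, was called higher in all 4 of these: the authors' deposited table gave 1.85 and 1.67 in marrow and 1.93 and 1.75 in spleen, with B16F10 before YUMM3.3. FERNANDEZ_BOUND_BY_MYC, promoters bound by MYC in chromatin immunoprecipitation, had NES of 1.74 and 1.42 in marrow and 1.88 and 1.38 in spleen in the same order in the authors' deposited table, called with B16F10 in each tissue and not with YUMM3.3. In the direct spleen comparison it was called higher with B16F10 (1.79, FDR q = 0.0212, in the authors' deposited table). CAIRO_PML_TARGETS_BOUND_BY_MYC_UP, of 18 genes, was called in spleen of B16F10-bearing animals alone, with an NES of 1.89 per the authors' deposited table, and lay between 0.90 and 1.53 in the other 6 comparisons.

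The next 4 lists of MYC-induced genes were named because they were called. Each passed in 2 to 4 of the comparisons with healthy animals. Of all 29 activated-name sets, 13 were called higher in none of these 4 comparisons and 2 in all 4. Of all listed sets, 20.1% and 9.68% were called higher in marrow and 16.6% and 15.6% in spleen, with B16F10 before YUMM3.3. DANG_MYC_TARGETS_UP, of 106 genes from a curated MYC target database, was called higher in each comparison with healthy animals, with NES of 2.11 and 2.09 in marrow and 2.20 and 2.30 in spleen in the authors' deposited table. DANG_REGULATED_BY_MYC_UP, from the same database, had 1.85 and 1.37 in marrow and 1.93 and 1.76 in spleen in the authors' deposited table, and only the second of these did not pass. COLLER_MYC_TARGETS_UP, of 22 genes, had 2.05 and 1.51 in marrow and 1.93 and 1.72 in spleen in the authors' deposited table, and again YUMM3.3 in marrow was the value not called. PID_MYC_ACTIV_PATHWAY passed in spleen with each tumour, at 1.88 and 2.12, and not in marrow, at 1.57 and 0.95, in the authors' deposited table. These 4 lists were above 0 in all comparisons with healthy animals.

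The YU, SCHUHMACHER and MORI sets come from B cells or B cell tumours, and none of them was called between the tumours in marrow. YU_MYC_TARGETS_UP, of 35 genes, had NES of 2.22 with B16F10 and -1.29 with YUMM3.3 in marrow, and 2.40 and 2.73 in spleen, in the authors' deposited table. SCHUHMACHER_MYC_TARGETS_UP, of 68 genes, had 2.43 and -0.99 in marrow and 1.93 and 1.79 in spleen in the authors' deposited table. MORI_EMU_MYC_LYMPHOMA_BY_ONSET_TIME_UP, of 87 genes, had -1.88 and -1.22 in marrow and 1.39 and 2.35 in spleen in the authors' deposited table. It was called lower in marrow with B16F10 and higher in spleen with YUMM3.3, so these 2 calls differ in tumour as well as in tissue. It was not called in marrow with YUMM3.3 (FDR q = 0.311) or in spleen with B16F10 (FDR q = 0.179). The difference between the tissues was not tested.

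Sets that combine MYC with serum came from the same kind of B cell line, in which MYC and serum were given alone or together. SCHLOSSER_MYC_AND_SERUM_RESPONSE_SYNERGY was called higher with B16F10 in marrow (1.67), with YUMM3.3 in marrow (1.79) and with B16F10 in spleen (1.70), but not with YUMM3.3 in spleen (1.26), in the authors' deposited table. SCHLOSSER_MYC_TARGETS_AND_SERUM_RESPONSE_UP was called in marrow with B16F10 (1.93) and in spleen with YUMM3.3 (1.69) in the authors' deposited table. SCHLOSSER_SERUM_RESPONSE_AUGMENTED_BY_MYC was called nowhere and ranged from -0.94 to 1.40 in the authors' deposited table. Serum response sets without MYC in the name, 15 in all, were called higher in 2 cases (13.3%) in marrow with either tumour, 5 (33.3%) in spleen with B16F10 and 3 (20.0%) in spleen with YUMM3.3. In spleen with YUMM3.3 1 was called lower. The shares of all listed sets called higher were 20.1% and 9.68% in marrow and 16.6% and 15.6% in spleen, with B16F10 before YUMM3.3.

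Further sets came from solid tissues and cancers. LEE_LIVER_CANCER_MYC_TGFA_UP, from livers of mice with Myc and Tgfa transgenes, was called higher in marrow with each tumour, at 1.84 and 1.93, and not in spleen, at 1.52 and 0.92, in the authors' deposited table. LEE_LIVER_CANCER_MYC_UP was called in marrow with YUMM3.3 (1.78) and in spleen with B16F10 (1.77) in the authors' deposited table. SANSOM_APC_TARGETS_REQUIRE_MYC, genes of the Apc-deficient intestine that need Myc, was called in spleen with YUMM3.3 alone (1.65) in the authors' deposited table. BILD_MYC_ONCOGENIC_SIGNATURE, from mammary epithelial cells given MYC, was called nowhere and ranged from -0.82 to 1.43 in the authors' deposited table.

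The other uncalled activated-name sets had smaller or mixed values against healthy animals. PID_MYC_PATHWAY, a curated list of MYC partners, had 1.01 and -1.10 in marrow and 0.94 and 1.42 in spleen in the authors' deposited table. SANSOM_APC_MYC_TARGETS had 0.95 and 1.23 in marrow and 1.35 and 1.35 in spleen, and ACOSTA_PROLIFERATION_INDEPENDENT_MYC_TARGETS_UP had 1.15 and 0.89 in marrow and 1.13 and 1.05 in spleen, both in the authors' deposited table. ALFANO_MYC_TARGETS had -1.09 and 1.11 in marrow and 1.48 and -1.06 in spleen in the authors' deposited table. It narrowly missed a call elsewhere, at 1.67 between the tumours in spleen (FDR q = 0.0506) and 1.58 in the lines (FDR q = 0.0530), in the authors' deposited table.

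None of the 5 MYCN or MYCL1 sets was called in any comparison, where between 11.1% and 25.1% of all listed sets were called in either direction. With 5 sets at such rates, about 1 call or fewer per comparison would match the background. Over the 7 comparisons together, 55.6% of all set names were called in at least 1, beside 0 of these 5. At a nominal p below 0.05 the enrichment reports listed 2 of the 5 lower with B16F10 in marrow, 1 lower with YUMM3.3 in marrow, 1 higher and 0 lower in the direct marrow comparison, 2 lower in the direct spleen comparison, and 0 in either direction in the other 3 comparisons. All of these were KIM_MYCN sets. The UP and the DN set were both lower with B16F10 in marrow and in the direct spleen comparison. With YUMM3.3 in marrow and in the direct marrow comparison it was the DN set alone. The counts therefore do not give a direction for MYCN targets. KIM_MYCN_AMPLIFICATION_TARGETS_UP, from small cell lung cancer lines with MYCN amplification, had NES of -1.54 and -0.93 in marrow and -1.33 and 1.25 in spleen in the authors' deposited table. Its DN set had -1.47 and -1.51 in marrow and -1.20 and 1.30 in spleen in the authors' deposited table. KIM_MYCL1_AMPLIFICATION_TARGETS_DN, of 16 genes, had -1.42 and -1.11 in marrow and 1.49 and 0.84 in spleen in the authors' deposited table. COWLING_MYCN_TARGETS had -1.30 and 0.86 in marrow and -0.99 and -1.29 in spleen in the authors' deposited table. LASTOWSKA_COAMPLIFIED_WITH_MYCN, genes gained together with MYCN in neuroblastoma and so not targets of it, lay between 0.90 and 1.25 in these 4 comparisons in the authors' deposited table. KIM_MYC_AMPLIFICATION_TARGETS_UP, the matching list for MYC, was not called either and had 1.56 and 1.35 in marrow and 1.41 and 0.95 in spleen in the authors' deposited table. Both KIM_MYCN lists were below 0 in marrow with each tumour, and both were below 0 with B16F10 and above 0 with YUMM3.3 in spleen.

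Sets with names ending in DN were called on both sides. Of the 13, 4 were called higher and 1 lower in marrow with B16F10, 0 and 0 in marrow with YUMM3.3 (1 and 1 at a nominal p below 0.05), 5 and 0 in spleen with B16F10, and 2 and 1 in spleen with YUMM3.3. In marrow with YUMM3.3, 9.68% and 6.52% of all listed sets were called higher and lower. In spleen with YUMM3.3 the DN shares were 15.4% and 7.69%, near the 15.6% and 5.31% of all listed sets. In the direct marrow comparison 0 were called, against 8.09% and 8.4% of all listed sets. At a nominal p below 0.05 the enrichment reports listed 3 higher and 0 lower there. With B16F10 the shares called higher were 30.8% in marrow and 38.5% in spleen, with median NES of 1.34 and 1.49. The activated-name sets had 37.9% in each, with medians of 1.38 and 1.48, and all listed sets had 20.1% and 16.6%. ODONNELL_TARGETS_OF_MYC_AND_TFRC_DN had NES of 1.94 and -1.17 in marrow and 2.30 and 2.79 in spleen in the authors' deposited table. Its name does not tell whether DN refers to MYC or to the transferrin receptor. SCHLOSSER_MYC_TARGETS_AND_SERUM_RESPONSE_DN had 2.02 and 0.62 in marrow and 1.82 and 1.71 in spleen, and ACOSTA_PROLIFERATION_INDEPENDENT_MYC_TARGETS_DN had 1.66 and 0.99 in marrow and 2.04 and -1.57 in spleen, both in the authors' deposited table. YU_MYC_TARGETS_DN was the DN set called lower with B16F10 in marrow, with an NES of -2.03 per the authors' deposited table. DANG_REGULATED_BY_MYC_DN, database genes that MYC reduces, was called higher in spleen with B16F10 (1.74) and lower with YUMM3.3 (-1.78) in the authors' deposited table, and higher with B16F10 in the direct comparison (1.93, FDR q = 0.00479). LEE_LIVER_CANCER_MYC_DN was called once, in marrow with B16F10 (1.61), and LEE_LIVER_CANCER_MYC_TGFA_DN against YUMM3.3 in spleen (1.74), both in the authors' deposited table.

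Of the 2 names with REPRESS, only 1 was called. SCHLOSSER_MYC_TARGETS_REPRESSED_BY_SERUM, where the repression named is by serum and not by MYC, had the largest NES of any MYC set in marrow with B16F10, 2.66, and -1.56 with YUMM3.3 (FDR q = 0.0865), in the authors' deposited table. In spleen it was called higher with each tumour, at 1.90 and 2.17 in the authors' deposited table. PID_MYC_REPRESS_PATHWAY, a curated list of genes that MYC represses, had -1.66 (FDR q = 0.0620) and -1.02 in marrow and -1.23 in spleen with YUMM3.3 in the authors' deposited table. It was also below 0 in spleen with B16F10, and none of these values passed.

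Both an UP and a DN set were listed in 11 pairs from 8 sources, which allows the 2 to be read side by side. The UP set had the larger signed NES in 6 of 11 pairs in marrow with B16F10, 8 in marrow with YUMM3.3, 5 in spleen with B16F10 and 6 in spleen with YUMM3.3. The 2 sets of a pair had opposite signs in 3, 1, 3 and 6 pairs in that order. YU_MYC_TARGETS was the pair with both sets called in opposite directions in marrow with B16F10, at 2.22 for UP and -2.03 for DN in the authors' deposited table. In spleen with YUMM3.3 there were 2 such pairs, DANG_REGULATED_BY_MYC at 1.76 and -1.78 and ODONNELL_TARGETS_OF_MYC_AND_TFRC at -1.73 and 2.79, the second with DN above UP, in the authors' deposited table. The name of the second does not tell whether UP and DN refer to MYC or to the transferrin receptor. The DN set of SCHLOSSER_MYC_TARGETS_AND_SERUM_RESPONSE was called beside its UP set in marrow with B16F10 and in spleen with YUMM3.3.

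**Figure D3:**
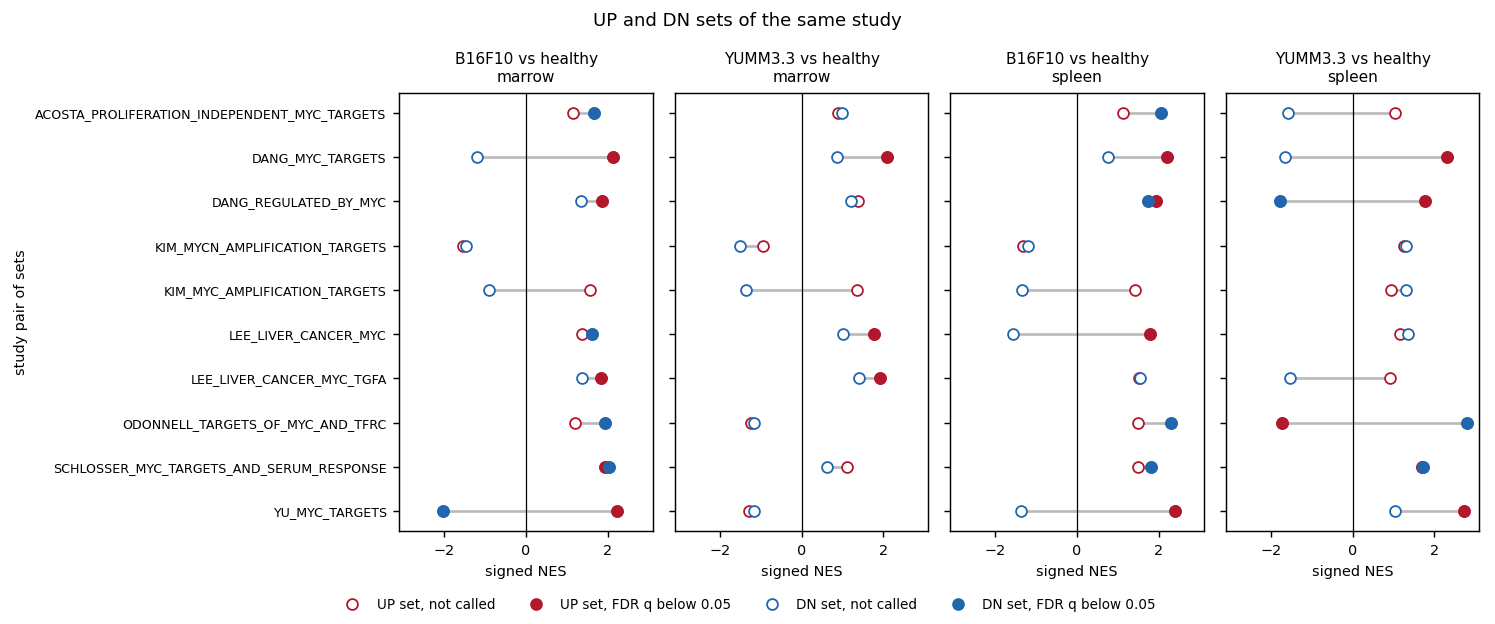
Signed NES (no unit) of the UP set (red) and the DN set (blue) of 10 of the 11 pairs, in the 4 comparisons with healthy animals; filled points have FDR q below 0.05 and a grey line joins a pair. Opposite signs are seen in 3, 1, 3 and 5 of these pairs from left to right, and the YU_MYC_TARGETS pair spans 2.22 to -2.03 in marrow with B16F10.

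Bone marrow and spleen share no libraries, so their values can be set beside each other as a description, although the labels do not say whether the animals were the same. With B16F10, 25 of 29 activated-name sets had the same sign in both tissues, and 8 were called higher in both, which is 72.7% of the 11 called in each tissue. Over all 3883 listed sets 2725 had the same sign, and the 396 called higher in both were 50.7% of those called in marrow and 61.6% of those called in spleen. Over the 29 sets, which share genes, Pearson's r was 0.575 and Spearman's rho 0.758, beside 0.558 and 0.640 over all 3883 listed sets. With YUMM3.3, 21 of 29 had the same sign and 2 were called higher in both, out of 5 called in marrow and 10 called in spleen. Over all listed sets 1671 had the same sign, and the shared calls were 25.8% of those in marrow and 16.0% of those in spleen. There r was 0.122 and rho 0.054 over the 29 sets, beside -0.170 and -0.185 over all sets. Among the 13 DN sets, 10 had the same sign in both tissues with B16F10 and 3 with YUMM3.3.

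**Figure D4:**
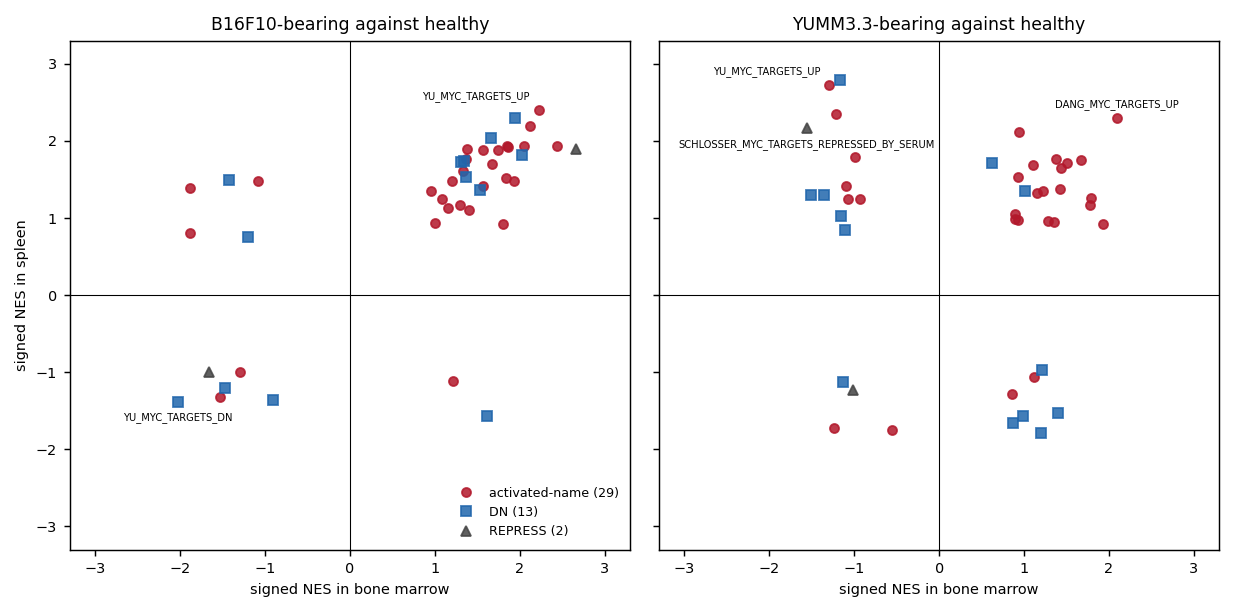
Signed NES (no unit) in bone marrow (x axis) and spleen (y axis) of each MYC set against healthy animals, for B16F10-bearing (left) and YUMM3.3-bearing animals (right); each point is a set and symbols give its name group. With B16F10, 25 of 29 activated-name sets lie in the 2 quadrants of equal sign, and with YUMM3.3 the sets YU_MYC_TARGETS_UP and SCHLOSSER_MYC_TARGETS_REPRESSED_BY_SERUM lie at negative values in marrow and positive values in spleen.

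The leading edge, the genes of a set between an end of the ranking and the peak of its running score, differed in depth between sets. For sets higher against healthy animals the deposited NES was negative. Their positions are therefore given from the tumour-bearing end of the ranking. In spleen with YUMM3.3, the authors' deposited table placed 77% of the genes of YU_MYC_TARGETS_UP within the first 7% of the ranking, and in spleen with B16F10 77% within the first 8%. In marrow with B16F10 the same share, 77%, was reached only at 17% of the ranking in the authors' deposited table. ODONNELL_TARGETS_OF_MYC_AND_TFRC_DN had 67% of its genes in the first 5% in spleen with YUMM3.3 and 69% in the first 10% with B16F10 in the authors' deposited table. The authors' deposited table gave DANG_MYC_TARGETS_UP 47% to 53% of its genes within the first 17% to 19% in 3 of the comparisons with healthy animals, and 34% within the first 12% in marrow with YUMM3.3. BENPORATH_MYC_TARGETS_WITH_EBOX had 29% to 41% of its genes within the first 14% to 18% in the authors' deposited table. SCHLOSSER_MYC_TARGETS_REPRESSED_BY_SERUM had 51% to 61% within the first 22% to 25% in its calls against healthy animals in the authors' deposited table. ACOSTA_PROLIFERATION_INDEPENDENT_MYC_TARGETS_DN, with 15% of its genes within the first 3% in spleen with B16F10, had the smallest share of its genes in the leading edge among the sets called higher against healthy animals.

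**Figure D5:**
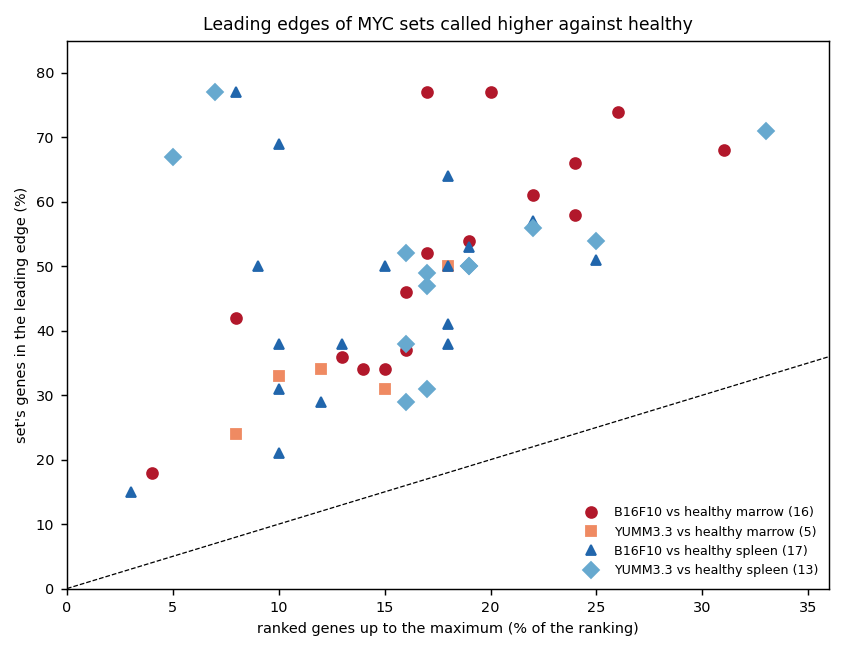
Share of a set's genes in the leading edge (y axis, %) against the share of the ranking up to the maximum (x axis, %), for MYC sets called higher against healthy animals; the dashed line marks equal shares, and the legend gives the number of sets, 16, 5, 17 and 13. The ranking is counted from its tumour-bearing end. In the upper left, YU_MYC_TARGETS_UP has 77% of its genes in the first 7% and 8% of the ranking in spleen. Most other sets reach their maximum deeper.

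In culture, few MYC sets were called between YUMM3.3 and B16F10. Of 29 activated-name sets, 1 was called higher in YUMM3.3 (3.45%) and 0 lower, against 11.8% and 1.47% of the 3871 listed sets, with 4 higher and 0 lower at a nominal p below 0.05 in the enrichment reports. That set was YU_MYC_TARGETS_UP, with an NES of 1.74 (FDR q = 0.0123) in the authors' deposited table. Among the DN sets, DANG_REGULATED_BY_MYC_DN was called, also at 1.74 (FDR q = 0.0115) in the authors' deposited table. The median NES of the activated-name sets was 1.02 and that of all listed sets 1.08. DANG_MYC_TARGETS_UP, at -1.03, COLLER_MYC_TARGETS_UP, at -1.18, and ODONNELL_TARGETS_OF_MYC_AND_TFRC_UP, at -1.12, were the activated-name sets below 0 in the authors' deposited table, and none of them passed. E2F sets were called higher in 2 of 14 cases.

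The 3 sets that match only through RAPAMYCIN came from a study of translation under this drug. BILANGES_SERUM_AND_RAPAMYCIN_SENSITIVE_GENES was called higher in marrow with YUMM3.3, with an NES of 2.55 per the authors' deposited table, and was -2.43 for B16F10 against YUMM3.3 in marrow. BILANGES_RAPAMYCIN_SENSITIVE_VIA_TSC1_AND_TSC2, named for the brakes on mTOR, was called higher with B16F10 in marrow (2.01) and spleen (1.66) in the authors' deposited table. BILANGES_RAPAMYCIN_SENSITIVE_GENES was called nowhere and ranged from -0.90 to 1.13 in the authors' deposited table.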

How the data were processed

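The values came from 14 reports of gene set enrichment, 2 per comparison. The submitters' processing notes name DESeq2 1.22.2, featureCounts 1.6.0, STAR 2.7.1a, FastQC 0.11.8 and the mm10 build, without their roles. The ranking of genes and the kind of permutation are not given in the sources used here. Per the file headers, each deposited entry gives a set's size, enrichment score, NES, nominal p-value, FDR q-value, family-wise p-value, rank at the maximum and leading edge. Myeloid reports were read as listing sets higher in their first-named group, and the line reports by their up and down labels. The deposited sign of NES was negative for sets higher in tumour-bearing than in healthy animals, so signs were reset. A joint reversal of all comparisons of a tissue would not be seen from the files.

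Groups were read from the sample labels. No per-library values were analysed, so no test was run here. Members were classed by name with Python 3.11.15 and pandas 2.3.3, and calls were counted at FDR q below 0.05 beside all listed sets. Related lists were taken by words in set names (E2F; RIBOSOM, TRANSLATION or RRNA; SERUM without MYC; MTOR; words for B cells, T and NK cells, erythroid cells and platelets), without names ending in DN. The T and NK cell list had 14 sets. In marrow with B16F10, 3 were called higher and 2 lower (21.4% and 14.3%), against 20.1% and 5.0% of all listed sets. In marrow with YUMM3.3 these were 1 and 3 (7.14% and 21.4%), against 9.68% and 6.52%. In spleen with B16F10 they were 2 and 2 (14.3% and 14.3%), against 16.6% and 1.6%. In spleen with YUMM3.3 they were 4 and 2 (28.6% and 14.3%), against 15.6% and 5.31%. The part of these cells in the MYC values was not tested. Sets named are the up to 6 activated-name sets of largest NES called per comparison and direction, those called in at least 4 comparisons, MYCN, MYCL1, binding and E-box sets, and called DN or REPRESS sets; others named in the text were chosen after their values were seen. The values of 2 member sets that the rule would name are not reported here, although the sets stay in all counts and medians. Counting was tested on simulated reports. The members and lists were chosen with earlier results of these data known. Alternatives were FDR q below 0.25, sets of 25 to 200 genes, each source counted once and, chosen after seeing the data, a family-wise p below 0.05 and inclusion of the RAPAMYCIN sets.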

Additional observations from a re-analysis of the deposited data

Results flagged for a closer look

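The direct comparison of the tumours bears on whether their effects on the host differ, and 10 sets reported here passed it in a tissue, 4 in marrow and 6 in spleen, by the deposited FDR q. Of all listed sets 16.5% were called in either direction in marrow and 11.1% in spleen, so 4 of the 45 sets reported is below that rate and 6 of 45 near it. In marrow these were, in the authors' deposited table, SCHLOSSER_MYC_TARGETS_REPRESSED_BY_SERUM (2.15), DANG_MYC_TARGETS_UP (-1.75), LEE_LIVER_CANCER_MYC_UP (-1.66) and BILANGES_SERUM_AND_RAPAMYCIN_SENSITIVE_GENES (-2.43), where positive is higher with B16F10. In spleen all 6 were higher with B16F10 in the authors' deposited table: ACOSTA_PROLIFERATION_INDEPENDENT_MYC_TARGETS_DN (2.27), DANG_REGULATED_BY_MYC_DN (1.93), ODONNELL_TARGETS_OF_MYC_AND_TFRC_UP (1.87), FERNANDEZ_BOUND_BY_MYC (1.79), COLLER_MYC_TARGETS_UP (1.76) and LEE_LIVER_CANCER_MYC_TGFA_DN (1.74). Over all listed sets in spleen, 9.63% were called higher with B16F10 and 1.47% lower, so most of those calls went the same way. DANG_MYC_TARGETS_UP passed the direct comparison in marrow although its NES against healthy marrow was 2.11 with B16F10 and 2.09 with YUMM3.3 in the authors' deposited table. The cause of this was not tested.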

How the results depend on the processing

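Counting each source once, or including the RAPAMYCIN sets, left each of the 14 counts of activated-name sets within 1.5 times its value. Counting each source once also raised the share of all sources called higher, since it keeps the set of largest NES. With B16F10 this share was 40.4% in marrow and 40.1% in spleen, beside 42.9% and 47.6% of activated-name sources. With YUMM3.3 it was 14.8% in marrow and 31.6% in spleen, beside 19.0% and 42.9% of activated-name sources. With sets of 25 to 200 genes, 13 counts stayed within that range, and those lower in spleen with YUMM3.3 fell from 2 to 1, as fewer sets were counted. At FDR q below 0.25, 9 counts moved: sets higher were 18 in marrow with B16F10, 10 in marrow with YUMM3.3, 19 in spleen with B16F10, 3 and 11 for B16F10 against YUMM3.3 in marrow and spleen, and 6 in the lines, and sets lower were 1 in marrow with YUMM3.3 and 7 and 1 for B16F10 against YUMM3.3 in marrow and spleen. The shares of all listed sets were then 37.1%, 19.9%, 34.7%, 21.3%, 28.4% and 35.4% higher and 20.1%, 17.9% and 5.1% lower, in the same order. At a family-wise p below 0.05, 9 counts moved: sets higher were 3 in marrow and 2 in spleen with B16F10, 0 in marrow and 4 in spleen with YUMM3.3, 0 between the tumours in spleen and 0 in the lines, and sets lower were 0 in marrow with B16F10, 0 in spleen with YUMM3.3 and 0 between the tumours in marrow. The shares of all listed sets were then 4.82%, 5.25%, 3.24%, 6.85%, 1.42% and 2.04% higher and 0.85%, 0.335% and 2.16% lower, in the same order. With each source counted once, the median NES of the DN sets was -0.97 in place of 0.84 in spleen with YUMM3.3 and -0.91 in place of 0.995 in the lines, and the cause was not tested. The median over all sets in spleen with YUMM3.3 was then 0.99 in place of -0.69. No replicate could be left out and no paired analysis was possible because the columns carry 1 value per set and no library values.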
